A study of Canis lupus familiaris with 6 samples.

Results

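The extracellular matrix genes examined here were the collagen, laminin, fibulin, fibrillin and thrombospondin chains, together with fibronectin, nidogen, perlecan, agrin, tenascin-C, SPARC, versican, biglycan, decorin and lumican. Members were found by gene name, among the names that the scanner files gave to non-control probes. This gave 140 probes for 66 genes among the 43603 probes of the array. RNA came from MDCK cells, a dog kidney epithelial line, analysed on 1-colour Agilent canine arrays (6 arrays, 3 in each group). The cells studied, called β-cat ΔN/RasV12 cells, carried mCherry-β-catenin Δ131, a truncated β-catenin that activates Wnt signalling, and GFP-RasV12, an oncogenic Ras that tetracycline switches on. In single culture these cells grew alone, and in mix culture they grew among MDCK cells that carried mCherry-β-catenin Δ131 without RasV12, with 10 surrounding cells for every β-cat ΔN/RasV12 cell. Both groups grew on collagen-coated dishes, both received tetracycline for 24 h, and GFP-positive cells of both groups were then sorted by flow cytometry. The comparison asks how the surroundings of a Ras-transformed cell with Wnt activation alter its transcripts. The labels do not say that the 3 samples of a group were separate cultures, so each p-value measures the spread between these samples, which may be technical.

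The matrix beneath an epithelium is organised around a thin sheet, the basement membrane, in which a laminin network bound to cell surface receptors and a type IV collagen network are joined by nidogen, perlecan and agrin. Laminins are trimers of an alpha, a beta and a gamma chain, and some of them anchor epithelial cells to the sheet. Interstitial matrix, in contrast, holds fibrillar collagens, fibronectin, the fibrillins and fibulins of elastic fibres, and proteoglycans such as versican, and is largely made by mesenchymal cells.

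Each value below is a relative intensity, the processed spot intensity as a percent of the 75th percentile intensity of its array. These percentiles lay between 161 and 233 intensity units, and between 61.1 and 65.7% of all spots were well above background. Values are listed in the order of replicates 1, 2 and 3, and replicate 1 of each group was hybridised on slide 1 and replicates 2 and 3 on slide 2. The fitted change is the difference of mean log2 relative intensities, mix minus single culture, with its standard error from limma. The level of a probe was not set against that of another probe. Since each array reads RNA pooled from many sorted cells, a different share of expressing cells and a different amount of RNA in each cell cannot be told apart. Each slide held arrays of both groups, so the change is also given within each slide and with the slide as a block in the fit.

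The results turned on a few probes, whose first 30 of 60 bases (5′ to 3′, CanFam3.1) are shown because probes of the same gene read different stretches of it. The 2 probes of FBN2 differed in response, as did those of COL11A2, whereas the 2 of VCAN moved alike. Those of COL7A1 and COL9A2 are shown as the other collagen probes past 1.5-fold and called with the slide block.
FBN2 probe A_11_P125046, chr11:17311390-17311449, minus strand: gtgctgaccaaagattcataaccaattata
FBN2 probe A_11_P0000026123, chr11:17316983-17317042, minus strand: cctgctacaacacccttggaggttacaaat
VCAN probe A_11_P0000032208, chr3:24129214-24129273, minus strand: caattcaataaatacatcaaaacatgatca
VCAN probe A_11_P0000015088, chr3:24128058-24128117, minus strand: caaacctgaaaatggacatagtatgctagt
COL11A2 probe A_11_P000002899, chr12:2626835-2626894, minus strand: tacagccctccgaccagtttcctttctgac
COL11A2 probe A_11_P052681, chr12:2628866-2629279, minus strand: aattctcttacgtggactcagagggctccc
COL7A1 probe A_11_P0000019706, chr20:40549576-40549635, plus strand: cagaggcctgtcatccctttgtctatggtg
COL9A2 probe A_11_P0000026915, chr15:2659496-2659729, plus strand: gacgccagcgaccagcacatcgtgaccgtg
The probes of FBN2 lay 5533 bases apart on the genome, those of COL11A2 1971 bases and those of VCAN 1096 bases. The probes COL11A2 A_11_P052681 and COL9A2 A_11_P0000026915 covered 414 and 234 bases of the genome with their 60 bases, so they joined sequence on either side of an interruption. Exon and UTR annotation of the probes was not used here.

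Much of the matrix list was not detected in either culture. Of the 140 probes, 68 (48.6%) were well above background on all 6 arrays, beside 58.7% of all probes of the array, 19 on 1 to 5 arrays and 53 on none. The test took probes with all 3 arrays of single culture, or all 3 of mix culture, well above background, and 75 matrix probes for 38 genes met this. Laminins, the class with the most genes, also had the most detected genes, while elastic fibre genes had a higher share (6 of 7 on all 6 arrays). Of 11 laminin chains 8 had a probe well above background on all 6 arrays, among them LAMA3, LAMA5, LAMB1, LAMB2 and LAMB3. LAMA2 passed on 5 arrays, and LAMA4 and LAMB4 were not well above background on any array. Type IV collagen was detected through COL4A1 and COL4A2, its most widespread chains, while COL4A3, COL4A4, COL4A5 and COL4A6 were not well above background on any array.

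Among the fibrillar collagens, COL1A2, COL5A2 and COL11A2 had a probe on all 6 arrays, and COL2A1, COL3A1, COL5A3 and COL24A1 had none on any array. COL1A1, the main chain of type I collagen, was well above background with 1 of 4 probes only. Decorin, nidogen 1 (NID1) and thrombospondin 4 (THBS4) were not well above background on any array. SPARC, TNC and LUM each had a probe well above background on 1 array of each group and were not tested. All 8 kidney epithelium marker genes on the array, such as EPCAM and CDH1, had a probe well above background on all 6 arrays. Of 8 fibroblast marker genes, 3 had such a probe (COL1A2, PDGFRB and THY1) and 3 (PDGFRA, DCN and COL3A1) had none on any array.

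**Figure D1:**
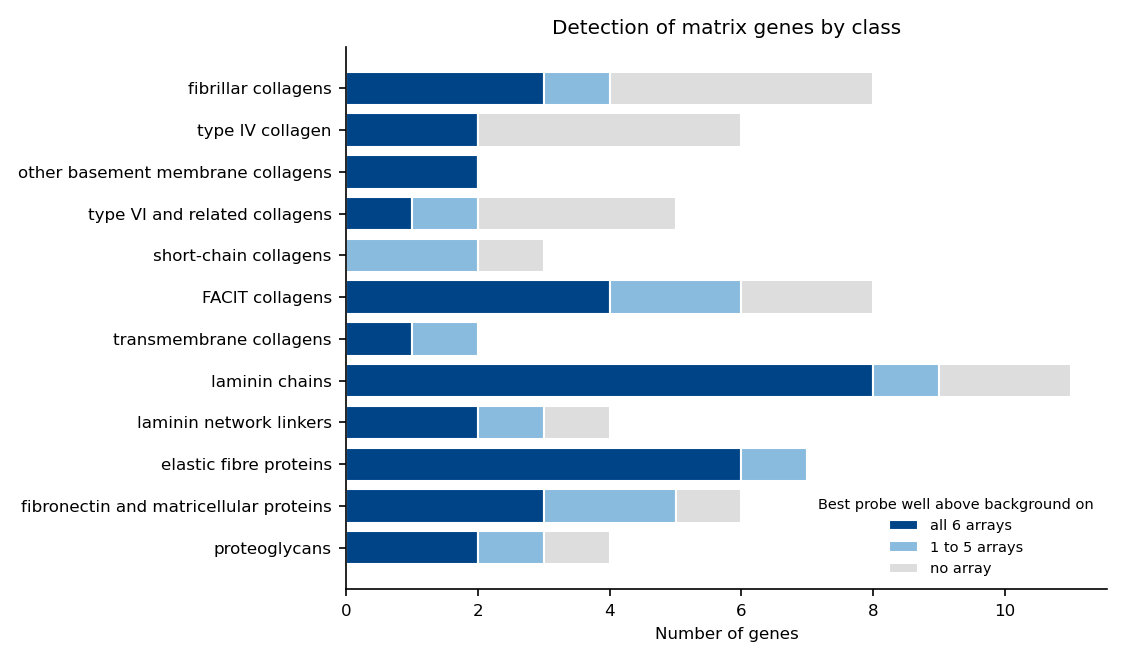
Number of matrix genes in each class (x axis) whose best probe was well above background on all 6 arrays, on 1 to 5 arrays or on no array. Of 11 laminin chains 8 were in the first category, whereas 4 of 6 type IV collagen chains and 4 of 8 fibrillar collagen chains were in the last.

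Most fitted changes of the tested matrix probes were small, though less often so than over the whole array. Of the 75 probes, 35 had a fitted change above 0 and 40 below, 62 lay within 0.5 of 0 on the log2 scale, and 2 reached 1. Of all 26623 tested probes, 11192 were above 0 and 15431 below, 24107 lay within 0.5, and 605 reached 1. With 1 probe for each gene, 29 of 38 matrix genes lay within 0.5, beside 8924 of 9876 tested symbols. With 1 probe for each gene, the median fitted change was -0.16 over 38 matrix genes and -0.05 over all 9876 tested gene symbols. Leaving out mix culture replicate 1 moved the matrix median to 0.01, and leaving out single culture replicate 1 moved it to -0.03. At an adjusted p under 0.05, 1 of 75 matrix probes passed (1.33%, beside 0.883% of the 26623 probes tested). With the slide as a block, 11 matrix probes for 9 genes passed (14.7%, beside 7.20% of all tested probes). Of these, 6 were higher in mix culture, where 3.98% of all tested probes were called, and 5 were lower, where 3.22% were. With the replicate number as a block, 4 matrix probes passed (5.33%, beside 5.25% of all), each of them higher in mix culture (3.23% of all). With 1 probe for each gene, the brightest tested, 0 of 38 genes passed without a block, beside 0.942% of all tested symbols. FBN2 was then read by its brighter probe, which was not called. With the slide block 8 of the 38 genes passed (21.1%, beside 7.52%), and with the replicate block 2 (5.26%, beside 5.45%). The groups did not overlap for 13 matrix probes (17.3%, beside 16.5% of all tested probes). Of these, 9 were higher (7.85% of all) and 4 lower (8.66% of all) in mix culture. Among the 13, FBN2 probe A_11_P125046 and the NID2 probe were tested through 1 group only, the group where each was high. An unadjusted p under 0.05 was reached by 10 matrix probes (13.3%, beside 8.71% of all). The slides themselves differed at 32 matrix probes (42.7%, beside 47.2% of all) with the culture in the same fit.

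**Figure D2:**
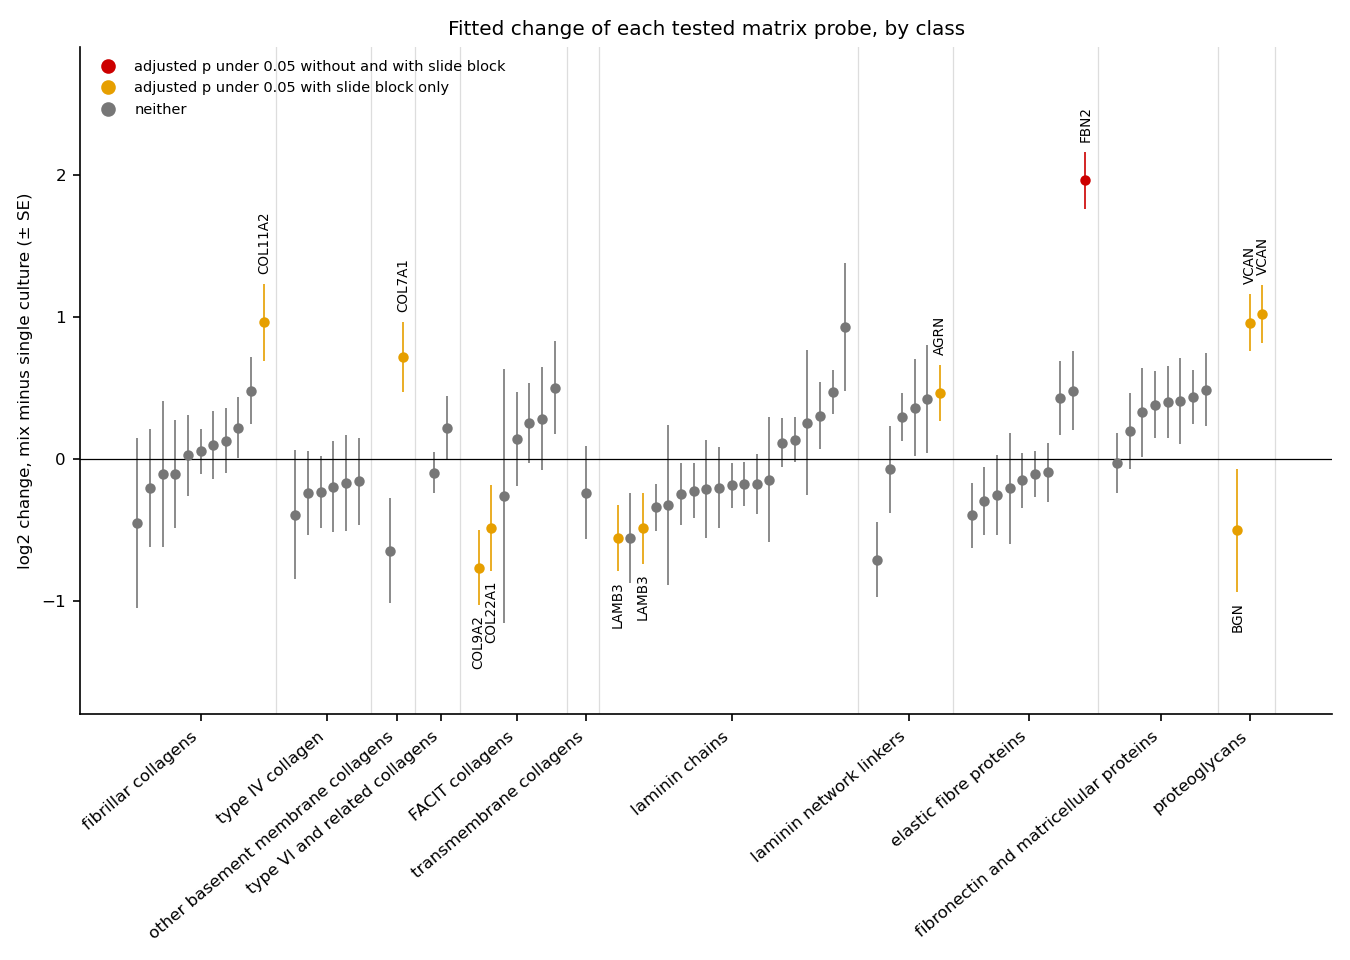
Fitted log2 change, mix minus single culture, with its SE (y axis) for each of the 75 tested matrix probes, grouped by class (x axis). FBN2 at 1.96 was the 1 probe past the threshold without a block, and 10 more probes, labelled by gene, passed with the slide as a block.

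Fibrillin 2 (FBN2), a microfibril glycoprotein of developing elastic fibres, held the largest fitted change among the matrix probes. Its probe A_11_P125046 read 2.31, 2.46 and 2.76% in single culture and 11.8, 10.3 and 7.61% in mix culture. All mix culture arrays lay above all single culture arrays, and the probe was well above background on 3 of 3 mix culture arrays and on none in single culture. It thus entered the test only through mix culture, the group where it was high. Its p-values and the lack of overlap are not independent of that selection. With each single culture value set no lower than the lowest signal well above background, the mix culture level was 3.87-fold higher. This lower bound nearly repeats the fitted 3.89-fold and carries no sampling or background error. The fitted change was 1.96 (SE 0.20), and the adjusted p was 0.008, or 0.00053 with the slide block and 0.0012 with the replicate block (limma). The change was 2.35 on slide 1 and 1.76 on slide 2. In intensity units the spots were dim, at 4.75, 4.11 and 4.75 units in single culture and 27.5, 18.6 and 12.3 units in mix culture. Without mix culture replicate 2 the adjusted p was 0.056, and with normexp background correction, which adds an offset of 50 units to every spot, the change was 0.24 with an adjusted p of 0.88.

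The second FBN2 probe, which on the minus strand lies upstream of the first in the direction of transcription, did not show this change. Probe A_11_P0000026123 read 24.5, 15.0 and 18.0% in single culture and 22.4, 12.7 and 13.7% in mix culture. The groups overlapped and the high values were the slide 1 arrays of each group. Its fitted change was -0.25 (SE 0.28) with an adjusted p of 0.92. The fitted changes of the 2 FBN2 probes lay 2.21 apart on the log2 scale, the widest gap among the 21 genes with more than 1 tested probe. The median gap in those genes was 0.16, and in 15 of the 21 all tested probes had the same sign.

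The other elastic fibre genes gave no call in any of the 3 fits. FBLN5, a fibulin that links elastin to integrins, had fitted changes of 0.43 (SE 0.26) and 0.48 (SE 0.28) at its 2 probes, both above 0 on each slide. FBLN7, a cell adhesion fibulin, had -0.30 (SE 0.24) and -0.40 (SE 0.23). The lowest adjusted p of these 4 probes with the slide block was 0.096. FBLN1, FBLN2 and FBN3 had fitted changes from -0.21 to -0.10, and FBN1 had 5 probes of which none was tested.

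Versican (VCAN), a large chondroitin sulfate proteoglycan of provisional matrix, was about 2-fold higher in mix culture with both of its probes. Probe A_11_P0000032208 read 12.4, 8.64 and 8.84% in single culture and 19.3, 17.7 and 23.2% in mix culture. Probe A_11_P0000015088 read 9.36, 9.13 and 10.9% in single culture and 14.7, 21.1 and 22.0% in mix culture. With each probe every mix culture array lay above every single culture array, and slide 2 showed the wider gap, with changes of 0.64 on slide 1 and 1.22 on slide 2 for the former and 0.65 on slide 1 and 1.11 on slide 2 for the latter. The fitted changes were 1.02 (SE 0.20) and 0.96 (SE 0.20), corresponding to 2.03-fold and 1.94-fold. The adjusted p was 0.100 and 0.12 without a block, 0.0087 and 0.0057 with the slide block, and 0.013 and 0.010 with the replicate block. With an array left out, the adjusted p without a block lay between 0.053 and 0.45 for the first probe (limma). For the second it lay between 0.046, without mix culture replicate 1, and 0.48. The spots of both probes were dim, between 14.4 and 44.8 intensity units. With normexp no matrix probe was called, so neither VCAN probe passed.

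Biglycan (BGN), a small leucine-rich proteoglycan, lay in the opposite direction. Its probe read 112, 225 and 224% in single culture and 68.9, 165 and 175% in mix culture. Slide 1 arrays were low in both groups, so the groups overlapped when pooled, yet within each slide the mix culture arrays were lower (-0.70 on slide 1 and -0.41 on slide 2). The fitted change was -0.50 (SE 0.43), with an adjusted p of 0.87 without a block, 0.034 with the slide block and 0.066 with the replicate block. With an array left out the change lay between -0.84 and -0.07, the extremes being those that dropped a slide 1 array.

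**Figure D3:**
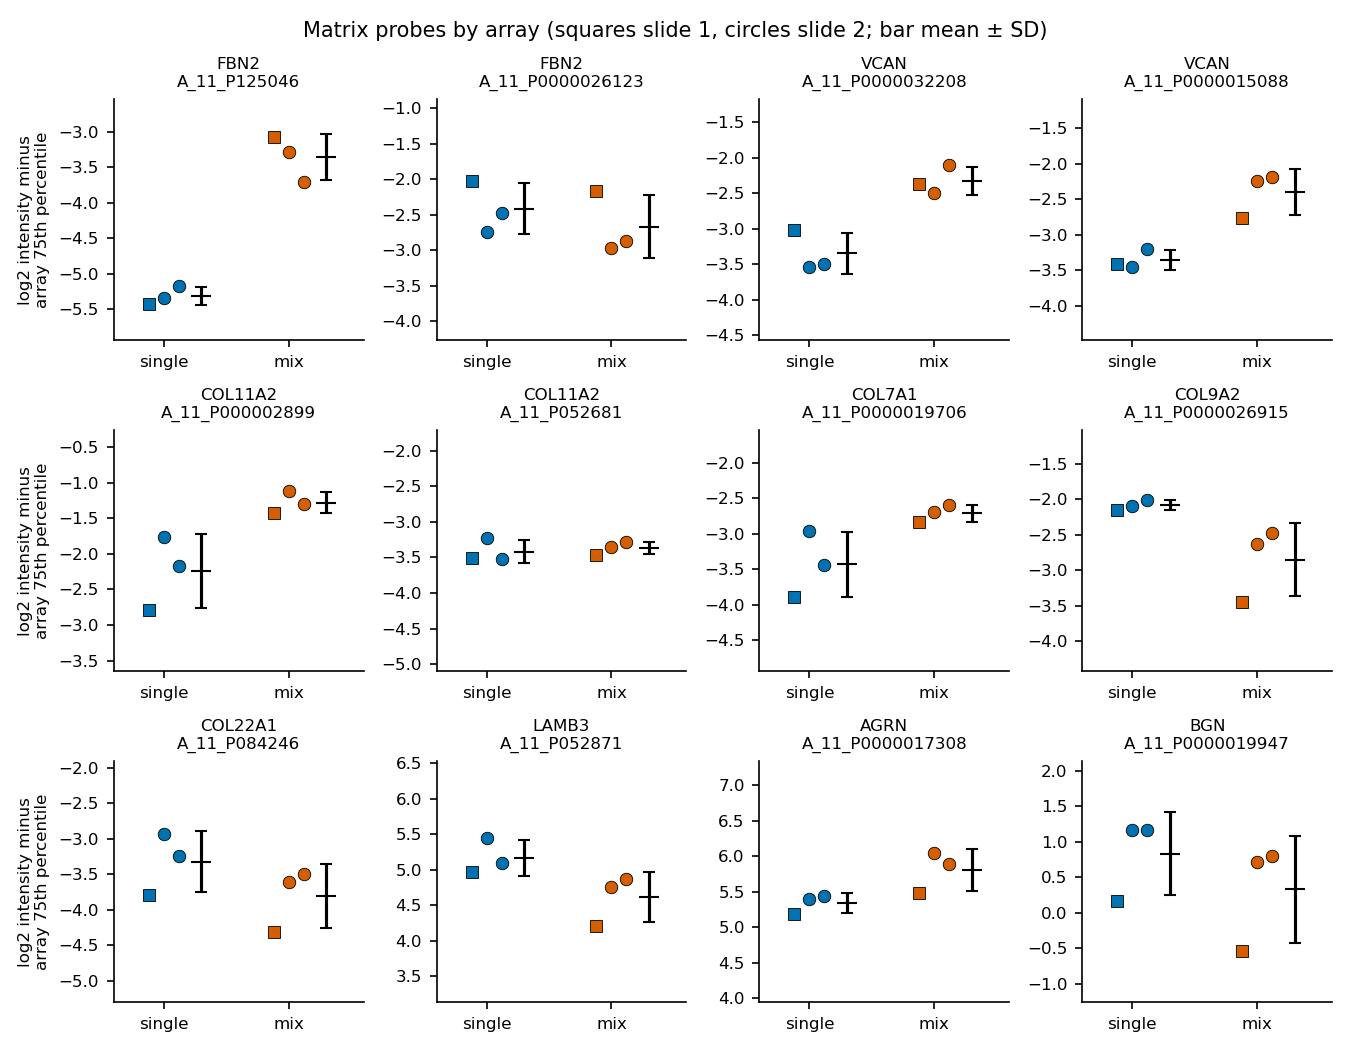
Log2 intensity minus the 75th percentile of the array (y axis) for 12 matrix probes in single and mix culture (x axis), with squares for slide 1, circles for slide 2 and the mean ± SD of 3 arrays beside them. FBN2 probe A_11_P125046 and both VCAN probes have no overlap between the groups, whereas the second FBN2 probe and the second COL11A2 probe do not separate.

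Collagens of several families changed with the slide as a block, and none without it. COL11A2, a chain of the minor fibrillar type XI collagen, read 14.5, 29.6 and 22.3% in single culture and 37.4, 46.0 and 40.9% in mix culture at probe A_11_P000002899. All mix culture arrays were higher, the fitted change was 0.96 (SE 0.27), and the adjusted p was 0.28 without a block, 0.014 with the slide block and 0.016 with the replicate block. The second tested COL11A2 probe, A_11_P052681, had overlapping groups and a fitted change of 0.05 (SE 0.16). COL7A1, which forms the anchoring fibrils below the epithelial basement membrane, read 6.76, 12.8 and 9.24% in single culture and 14.0, 15.5 and 16.5% in mix culture. All mix culture arrays were again higher, with a fitted change of 0.72 (SE 0.25) and an adjusted p of 0.43, 0.036 with the slide block and 0.052 with the replicate block. Of its 3 probes the other 2 were not well above background on any array. With normexp the change was 0.13 for COL7A1 (adjusted p 0.998, limma) and 0.46 for COL11A2 probe A_11_P000002899 (adjusted p 0.66).

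COL9A2 and COL22A1, chains of collagens that associate with fibrils (FACIT collagens), were lower in mix culture with the slide block. COL9A2 read 22.5, 23.5 and 24.8% in single culture and 9.20, 16.1 and 18.0% in mix culture. Its groups did not overlap, its fitted change was -0.77 (SE 0.26), and its adjusted p was 0.43, 0.034 with the slide block and 0.055 with the replicate block. With normexp the change of COL9A2 was -0.33, with an adjusted p of 0.87 (limma). COL22A1 read 7.23, 13.1 and 10.6% in single culture and 5.01, 8.23 and 8.84% in mix culture, with overlap between the groups, a fitted change of -0.49 (SE 0.30) and an adjusted p of 0.048 with the slide block, 0.78 without it and 0.080 with the replicate block. For COL9A2 slide 1 showed the larger difference (-1.29 on slide 1 and -0.50 on slide 2), while for COL22A1 the slides were close (-0.53 on slide 1 and -0.46 on slide 2).

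Type IV collagen, the network-forming collagen of the basement membrane, had 6 tested probes, all with a fitted change below 0 and none called in any fit. COL4A1 probe A_11_P116396 read 588, 248 and 360.4% in single culture and 308, 388 and 292% in mix culture. COL4A2 probe A_11_P0000022407 read 352, 385 and 466% in single culture and 211, 532 and 393% in mix culture. In both genes mix culture was lower than single culture on slide 1, whereas mix culture replicate 2 was the highest array of slide 2, and the groups overlapped. Over the 6 probes the change lay between -1.19 and -0.58 on slide 1, which holds 1 array of each group, and between -0.06 and 0.23 on slide 2. The difference between the slides was not tested. The fitted changes lay between -0.39 and -0.16, and the lowest adjusted p with the slide block was 0.35.

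COL5A2, a regulatory chain of type I and type V fibrils, was measured by 4 probes with fitted changes from 0.10 to 0.48 and no call. Its probe A_11_P116616 read 139, 88.1 and 143% in single culture and 142, 183 and 183% in mix culture, and single culture replicate 2 was the lowest array. COL12A1, a FACIT collagen of tension-bearing tissue, was below 0 on slide 1 (-0.90 to -0.50) and above 0 on slide 2 (0.63 to 0.72) at its 3 tested probes. COL1A2 had 4 tested probes with fitted changes from -0.21 to 0.02. The signal of COL1A2 followed the slide: probe A_11_P145878 read 152, 66.4 and 66.1% in single culture and 120.0, 57.1 and 63.1% in mix culture. The summed intensity of the 8 fibroblast marker genes, which include COL1A2, was 530 and 492 units on the slide 1 arrays of single and mix culture and between 228 and 278 units on slide 2. COL1A2 probe A_11_P145878 itself supplied 312 and 279 of these units on slide 1 and between 102 and 114 on slide 2. The sum is therefore not separate from COL1A2, and the part of fibroblast markers in these values was not tested. COL15A1, a collagen at the interface of basement membrane and stroma, had a fitted change of -0.65 (SE 0.37) with overlapping groups and an adjusted p of 0.75, or 0.15 with the slide block. COL6A1 and COL17A1, the latter a hemidesmosome collagen of keratinocytes and other epithelia, had adjusted p-values of at least 0.36 with the slide block.

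The laminin chains gave no call without a block, beside 0.883% of all tested probes. With the slide block 2 of 19 probes were called (10.5%, beside 7.20% of all tested probes), both of LAMB3. LAMB3 is a beta chain of a laminin that anchors epithelial cells, and its probe A_11_P052871 read 3129, 4389 and 3419.7% in single culture and 1854, 2702 and 2923% in mix culture. Every mix culture array was lower than every single culture array. The fitted change was -0.56 (SE 0.23), the adjusted p was 0.56 without a block, 0.045 with the slide block and 0.073 with the replicate block. LAMB3 probe A_11_P053811 had a fitted change of -0.49 (SE 0.25) and passed with the slide block at 0.028 but not with the replicate block (0.052), and the third, A_11_P211498, had -0.56 (SE 0.32) and did not (0.12). All 3 probes of LAMB3 were below 0 on both slides.

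LAMA3, an alpha chain of epithelial laminin, read 995, 1552 and 1375% in single culture and 1076, 1043 and 1314% in mix culture, with overlapping groups and a fitted change of -0.18 (SE 0.21).

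Other laminin chains gave no call in any of the 3 fits. LAMA5, the main alpha chain of mature epithelial basement membranes, read 133, 122 and 104% in single culture and 98.4, 84.9 and 99.6% in mix culture. Its groups did not overlap, but the fitted change of -0.34 (SE 0.17) had an adjusted p of 0.66, or 0.13 with the slide block. LAMB1 had 3 probes between -0.22 and -0.18, and LAMC1 had 4 probes between -0.25 and 0.13. LAMB2 had probes that disagreed, at -0.21, 0.25 and 0.93. The last of these, A_11_P184213, read 2.53, 5.78 and 5.74% in single culture and 14.5, 5.51 and 7.24% in mix culture, and the change was far apart between slides, at 2.52 on slide 1 and 0.13 on slide 2. LAMA2 and LAMC3 had fitted changes of -0.33 (SE 0.56) and -0.15 (SE 0.44).

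**Figure D4:**
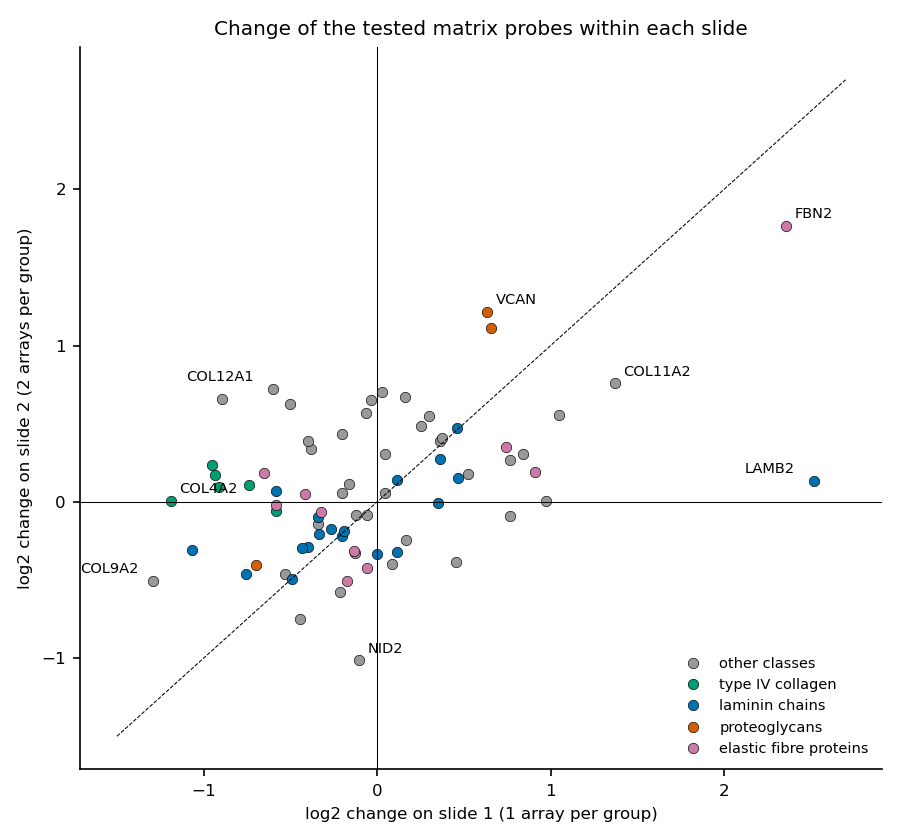
Log2 change of the 75 tested matrix probes on slide 2 (y axis, 2 arrays in each group) against slide 1 (x axis, 1 array in each group), coloured by class, with the dashed line at equal change. FBN2 probe A_11_P125046 and the VCAN and COL11A2 probes are above 0 on both slides, whereas FBN2 probe A_11_P0000026123 is below 0 on both. The 6 type IV collagen probes lie from -1.19 to -0.58 on slide 1 and near 0 on slide 2, and 1 LAMB2 probe is high on slide 1 only.

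Of the linkers of the laminin network, 1 agrin probe of the 6 tested probes was called, with the slide block only (16.7%, beside 7.20% of all tested probes). A single call among so few probes says little about the linkers as a class. Agrin (AGRN), a heparan sulfate proteoglycan that binds laminin, read 3637, 4238 and 4342% in single culture and 4469.5, 6621 and 5939% in mix culture at probe A_11_P0000017308. All mix culture arrays were higher, with a fitted change of 0.46 (SE 0.20) and an adjusted p of 0.57, 0.045 with the slide block and 0.082 with the replicate block. Its other 2 probes had 0.36 (SE 0.34) and 0.42 (SE 0.38), with overlapping groups and changes of -0.06 and -0.04 on slide 1. Nidogen 2 (NID2), which bridges laminin and type IV collagen, read 3.88, 4.58 and 3.64% in single culture and 3.61, 1.90 and 2.14% in mix culture. The groups did not overlap, but only 1 of 3 mix culture arrays was well above background. The fitted change of -0.71 (SE 0.26) had an adjusted p of 0.49, or 0.072 with the slide block (limma). This NID2 probe entered the test only through single culture, the group where it was high. Its p-values and the lack of overlap are therefore not independent of that selection. Perlecan (HSPG2) had fitted changes of -0.07 (SE 0.31) and 0.29 (SE 0.17) at its 2 probes.

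Fibronectin (FN1), the adhesive glycoprotein that assembles into fibrils on integrins, had 5 probes, all with a fitted change above 0 and none called. Probe A_11_P051431 read 4317, 2129 and 2783% in single culture and 5135, 3235 and 3591% in mix culture. The slide 1 arrays were high in both groups, and mix culture was above single culture within each slide (0.25 on slide 1 and 0.49 on slide 2). The fitted changes of the 5 probes lay between 0.33 and 0.49, and their adjusted p-values with the slide block were between 0.11 and 0.49. Thrombospondin 1 (THBS1), a matricellular protein that binds latent TGF-beta, read 802, 1201 and 1071% in single culture and 1362, 1279 and 1461% in mix culture at probe A_11_P061876. Its groups did not overlap, and the fitted change of 0.43 (SE 0.19) had an adjusted p of 0.60, or 0.10 with the slide block. The other THBS1 probe had 0.19 (SE 0.27), and THBS3 had -0.03 (SE 0.21).

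The enzymes and carriers that mature collagen were examined beside the chains. Of 38 such genes, which hydroxylate, glycosylate, fold, export, trim or cross-link procollagen, 29 had a named probe and 24 were tested. None was called by limma without a block, with the slide block or with the replicate block (0 of 24, 1 at an unadjusted p under 0.05, and 0 by the methods' t-test after adjustment). Over all tested gene symbols with 1 probe for each, 0.942% were called without a block, 7.52% with the slide block and 5.45% with the replicate block, and 8.56% had an unadjusted p under 0.05. The median fitted change, with 1 probe for each gene, was 0.02, and the fitted changes of the 24 lay between -0.44 and 0.41.

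Of 30 matrix receptor genes, 25 had a named probe and 22 were tested. None was called without a block (0 of 22, 4 at an unadjusted p under 0.05, and 0 by the methods' t-test after adjustment), whereas 5 had a called probe with the slide block and 4 with the replicate block. With 1 probe for each gene, 4 of 22 passed with the slide block (18.2%, beside 7.52% of all tested symbols) and 3 with the replicate block (13.6%, beside 5.45%), and the 4 at an unadjusted p under 0.05 were 18.2%, beside 8.56%. Of the 22 genes 4 had a fitted change above 0 and 18 below, with a median of -0.20 (-0.24 on each slide), beside -0.05 over all tested symbols. ITGB8, an integrin subunit that pairs with ITGAV to bind latent TGF-beta, read 37.1, 117 and 74.8% in single culture and 190.0, 178 and 172% in mix culture. Every mix culture array was higher, with changes of 2.36 on slide 1 and 0.90 on slide 2, a fitted change of 1.39 (SE 0.39) and an adjusted p of 0.27, or 0.030 with the slide block. CD47, a receptor of thrombospondin 1, was also higher, with a fitted change of 0.45 (SE 0.14) and 0.034 with the slide block.

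ITGAV itself, the alpha subunit of receptors for fibronectin and vitronectin, was lower at all 3 of its probes with the slide block. Its probe A_11_P142398 read 751, 657 and 682% in single culture and 573, 408 and 346% in mix culture. The groups did not overlap at this probe, and the fitted changes of the 3 probes lay between -0.72 and -0.62, with adjusted p-values from 0.0087 to 0.022 with the slide block and from 0.36 to 0.57 without it. The syndecans SDC1 and SDC4, transmembrane heparan sulfate proteoglycans, were lower as well. SDC1 had a fitted change of -0.68 (SE 0.26) and an adjusted p of 0.029 with the slide block against 0.51 without it. SDC4 had -0.65 (SE 0.18) with 0.028 against 0.27 at 1 probe, and -0.44 (SE 0.29) with 0.083 against 0.80 at the other.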

How the data were processed

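Total RNA of GFP-positive β-cat ΔN/RasV12 cells was labelled with Cy3 and hybridised on Agilent canine arrays, 3 per culture. Per the file headers, the deposited intensity was background-subtracted within each array by Agilent Feature Extraction, version 11.5.1.1 for replicate 1 of each group (slide 1) and 12.1.1.1 for replicates 2 and 3 (slide 2), without scaling between arrays. A deposited table held the authors' log2 values, centred near 0, with median values from -0.02 to 0.02. Its scaling and centring steps are not given in the sources used here, and its columns for mix culture replicates 2 and 3 each matched the scanner values of the other (r = 0.9986 and 0.9928 over 26623 probes), so it served as an alternative only. It was fitted without a block, yet LAMB2 probe A_11_P0000022119 had an SE of 0.081 there, beside 0.111 with the slide block and 0.510 in the main fit. For LAMA2 the SE was 0.113, beside 0.143 and 0.562. At these probes the table held little slide difference, so its counts are not an alternative separate from the slide block.

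From the scanner intensities, control and outlier-flagged spots (5 to 9 per array) were left out, the log2 intensity minus the 75th percentile of its array was taken, and spots of a probe were averaged. No spot was saturated. Probes well above background on all arrays of at least 1 group (26623) were fitted with limma 3.58.1 in R 4.3.3, with Benjamini-Hochberg adjustment over all of them and a threshold of 0.05. The slide and the replicate number were each used as a block. Deviations from the group mean correlated between same-numbered samples of single and mix culture (r = 0.801, 0.530 and 0.572), and the replicate numbers were taken as pairs. Within slide 2, samples of unlike number correlated somewhat more (r = 0.632 and 0.610), so for replicates 2 and 3 these values show the shared slide and do not show that the number pairs them. The replicate block follows the scanner files, and a block with mix culture replicates 2 and 3 exchanged was not run. Other alternatives were other filters, quantile normalization, normexp, the methods' t-test and leaving out each array. The fit was tested on simulated data. A lower bound on a fold set the mean of the bright group against, for each dim array, the higher of the probe's value and the lowest signal well above background.

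The matrix genes, the maturation and receptor lists and the markers were chosen with earlier results of these data known. Genes named were those called without a block, or with the slide block at 1.5-fold or more, the 10 with the largest fitted change, those with a lower bound, all tested laminin and type IV collagen chains and a fixed set of other matrix genes, and the gene of lowest p in each class. An item that this rule names is not reported here. Other genes given with values, such as FBLN5, COL12A1, COL22A1 and the receptors, were named after their values were seen. Gene names and positions (CanFam3.1) are those of the array's design, and 65 of the 66 gene names are symbols of RefSeq genes (UU_Cfam_GSD_1.0). The number of arrays limits the precision.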

Additional observations from a re-analysis of the deposited data

How the results depend on the processing

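Against 1 of 75 matrix probes called, the count was 0 of 68 with the filter on all 6 arrays and 2 of 140 with no filter. With the same 75 probes it was 11 with the slide block, 4 with the replicate block, 0 with normexp and 18 with the authors' table (11 higher in mix culture). It was 0 with the methods' t-test after adjustment (5 at an unadjusted p under 0.05) and 0 to 2 when each array was left out. The filter on all 6 arrays leaves out the called FBN2 probe, which was tested through mix culture only. FBN2 was lost without mix culture replicate 2 and VCAN was gained without mix culture replicate 1. Over all 26623 tested probes the count was 235 (217 higher), against 143 of 25613 with the filter on all 6 arrays and 222 of 43595 with no filter. With the same 26623 probes it was 1917 (1060 higher) with the slide block, 1399 (861 higher) with the replicate block and 101 with normexp. It was 4077 (1948 higher) with the authors' table, 8 with the methods' t-test and 86 to 242 with an array left out. The count fell furthest without single culture replicate 3 (94), mix culture replicate 2 (92) or mix culture replicate 3 (86). With the authors' table, 2 collagen maturation genes and 10 matrix receptor genes had a called probe, against 0 and 0. In that setting 4077 of all 26623 tested probes were called, and a share of all genes with any called probe was not taken. With the slide block 5 receptor genes and with the replicate block 4 had a called probe. With 1 probe for each gene these were 18.2% (beside 7.52% of all tested symbols) and 13.6% (beside 5.45%) of the tested receptor genes. The median change of the matrix genes moved by less than the spread between arrays in every alternative run. That spread, an SD of 0.30 for the median matrix gene level, is wider than the median change of -0.16 itself. Staying within it therefore does not show that the median was stable. With an array left out the median change lay between -0.13 and 0.01, as its lowest and highest values. The adjusted p of FBN2 probe A_11_P125046 ranged from 0.00053 to 0.88 over its alternatives.

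Among named genes that were not called, the COL6A1 probe reversed with normexp (-0.027). With an array left out, the change changed sign at some probes and lay between -0.49 and 0.13 for COL4A1, -0.47 and 0.20 for COL4A2, -0.81 and 0.20 for LAMA2, -0.42 and 0.050 for LAMB1, -0.26 and 0.66 for LAMB2, -0.021 and 0.21 for LAMC1, -0.45 and 0.32 for LAMC3, and -0.33 and 0.17 for HSPG2. The cause of these changes was not tested. The single culture spots of FBN2 probe A_11_P125046 (4.11 to 4.75 units) and the spots of NID2 (3.44 to 8.41 units) lay near the lowest signal well above background (4.19 to 4.48 units over the arrays).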

Other observations

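Some matrix probes outside the tested set are given as values only. COL8A1, a short-chain collagen of vessel walls and of Descemet's membrane in the eye, was well above background on 2 of 3 mix culture arrays and on none in single culture, with 1.89, 4.08 and 4.49 intensity units in single culture and 7.39, 4.61 and 10.4 in mix culture. FBN1 was well above background on single arrays with 3 different probes. The COL19A1 probe, in contrast, was tested and read 2597 and 2691 units on the slide 1 arrays of single and mix culture, and between 308 and 442 units on the 4 arrays of slide 2.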
